A study of Mus musculus with 10 samples.

Results

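Dmc1, Meiob, Spata22, Psmc3ip, Mnd1, Brca2, Rad51ap2, Mcmdc2 and Hsf2bp encode the strand exchange recombinase of meiosis and proteins that work beside it. The 9 genes were chosen by name, and all 9 were found among the 32285 genes listed for both single-cell samples. None of them was used to set the cell stages below. In meiosis, programmed double-strand breaks are resected to single-stranded DNA, which is coated by DMC1 and invades the homologous chromosome. DMC1 is the recombinase made only in meiotic cells. BRCA2 loads recombinases onto single-stranded DNA, and HSF2BP binds BRCA2 and brings it to meiotic breaks. RAD51AP2 is a protein of meiotic cells. MND1 and HOP2, the product of Psmc3ip, form a dimer that stimulates strand invasion. MEIOB and SPATA22 form a complex on single-stranded DNA together with the RPA proteins, and MCMDC2, a relative of the MCM helicase subunits, is needed for stable invasion of the homologue.

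RNA was measured in single cells of whole testis from 2 samples of 1 genotype, Smarca5 fl/delta; Ddx4-Cre+ (a conditional knockout, cKO). Ddx4 is expressed in germ cells, so the Cre acts there and somatic cells of the testis are not its target. Smarca5 encodes the ATPase SNF2H of the ISWI nucleosome remodellers. No wild-type single-cell sample was used here, so the RNA values describe cKO testis and compare no genotypes. Open chromatin was measured by ATAC-seq in sorted cells: cKIT+ cells of wild type C57BL6 and of cKO testis (2 libraries each), and cells of 4C DNA content, which the labels call pachytene spermatocytes (again 2 libraries each). That the first 4 libraries were cKIT+ comes from the submitters' library construction text. No RNA was measured in the sorted cells, so the sorts could not be checked against marker genes. Ages are not given in the sources used here, and nothing in them says that the replicates came from separate animals. The sample was a block in the tests, so the difference between the 2 samples was removed. The p-values measure how far stage changes varied between these samples only, and no spread between animals can be claimed.

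After filtering, 7413 and 12933 cells remained in cKO samples 1 and 2, with medians of 3678 and 4333 UMIs (unique molecules counted) per cell. Marker UMIs placed germ cells in 8 stages: spermatogonia, meiotic entry, leptotene/zygotene, early pachytene, late pachytene, round spermatids, early elongating spermatids and protamine-high spermatids. A stage held 158 to 2451 cells of a sample, with a median depth of 1637 to 11566 UMIs per cell. The limits between stages were set after the data were seen, and 494 of the 2538 leptotene/zygotene and early pachytene cells lay within 5 percentage points of the limit that separates them, a leptotene/zygotene marker share of 80%. The 10 leptotene/zygotene markers summed to between 61.6 and 119.8 UMIs per 10000 in those 2 stages and to between 2.36 and 2.85 in Leydig cells. In the same 2 stages, 9 Sertoli markers summed to at most 3.69 UMIs per 10000, 5 Leydig markers to at most 0.671 and 7 macrophage markers to at most 0.543, with at most 1 marker of a list at 0. Smarca5 transcripts stood at 378 and 319 CPM (UMIs per 1000000 UMIs of the stage) in leptotene/zygotene cells and at 9.22 and 4.84 CPM in round spermatids. The deleted part of Smarca5 is not given in the sources used here, and 3′ tags outside it do not check the deletion. The 2 samples were made with different Cell Ranger versions, and 27 barcodes of kept cells occurred in both. In meiotic entry cells, 60 of 171 and 97 of 258 lay within 5 percentage points of the limit to leptotene/zygotene. Leiden clusters staged by the same rule gave the same label to 0% and 1.55% of meiotic entry cells. For early pachytene cells these shares were 45.2% and 40.8%.

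The promoters of 5 genes are shown: Dmc1 and the 4 genes that share a sequence element, GCGGGAA. Mnd1 and Psmc3ip, whose start sites also carried peaks described below, lack GCGGGAA and are not printed. The windows run from 250 bases before to 50 bases after the start site on the gene's strand and were taken from RefSeq (GRCm38.p6, the assembly of mm10). Of the 9 genes, 7 matched a window. Capitals mark GCGGGAA (the core of an E2F site, or its reverse complement), TGACGTCA (a CRE), a pair of GCGC with 2 bases of any kind between them (an NRF1-type site), CCAAT (or its reverse complement) and TAACNG (a MYB-type site). The windows are Dmc1 at chr15:79605060-79605359 (minus strand), Brca2 at chr5:150522371-150522670 (plus strand), Rad51ap2 at chr12:11455805-11456104 (plus strand), Spata22 at chr11:73329491-73329790 (plus strand) and Hsf2bp at chr17:32034459-32034758 (minus strand).
Dmc1: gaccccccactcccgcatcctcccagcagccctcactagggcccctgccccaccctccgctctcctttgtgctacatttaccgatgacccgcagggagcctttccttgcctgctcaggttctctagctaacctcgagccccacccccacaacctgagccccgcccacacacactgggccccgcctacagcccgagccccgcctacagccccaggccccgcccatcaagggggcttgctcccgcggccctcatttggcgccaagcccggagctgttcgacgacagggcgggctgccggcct
Brca2: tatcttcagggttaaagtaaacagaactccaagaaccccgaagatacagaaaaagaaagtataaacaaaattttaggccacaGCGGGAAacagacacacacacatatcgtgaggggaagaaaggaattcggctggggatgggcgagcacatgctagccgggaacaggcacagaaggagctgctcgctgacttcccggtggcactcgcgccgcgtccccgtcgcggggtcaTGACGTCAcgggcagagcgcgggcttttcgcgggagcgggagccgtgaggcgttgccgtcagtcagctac
Rad51ap2: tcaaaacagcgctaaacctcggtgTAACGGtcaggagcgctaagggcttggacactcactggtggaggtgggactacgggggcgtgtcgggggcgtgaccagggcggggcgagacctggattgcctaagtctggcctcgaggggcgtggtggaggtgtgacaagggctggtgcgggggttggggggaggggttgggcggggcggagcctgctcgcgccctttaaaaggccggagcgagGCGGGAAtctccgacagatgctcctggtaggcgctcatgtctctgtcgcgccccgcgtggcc
Spata22: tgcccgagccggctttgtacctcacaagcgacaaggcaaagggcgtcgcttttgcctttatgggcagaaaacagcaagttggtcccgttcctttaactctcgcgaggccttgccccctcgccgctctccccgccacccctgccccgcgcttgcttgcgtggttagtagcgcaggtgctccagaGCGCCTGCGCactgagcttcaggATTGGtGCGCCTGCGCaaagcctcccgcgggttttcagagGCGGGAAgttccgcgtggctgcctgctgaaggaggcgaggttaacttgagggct
Hsf2bp: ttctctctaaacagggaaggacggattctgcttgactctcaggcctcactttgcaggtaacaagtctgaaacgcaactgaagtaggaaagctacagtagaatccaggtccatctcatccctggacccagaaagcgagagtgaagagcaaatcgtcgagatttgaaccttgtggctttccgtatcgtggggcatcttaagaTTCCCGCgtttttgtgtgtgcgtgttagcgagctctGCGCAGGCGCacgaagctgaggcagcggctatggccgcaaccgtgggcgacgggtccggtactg

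GCGGGAA was found on either strand in 4 of the 7 windows (Brca2, Rad51ap2, Spata22 and Hsf2bp) and in 4.6% of 32851 RefSeq promoter windows of the same length. The first base of the match lay 4 bases before the start site in Spata22, 12 in Rad51ap2, 50 in Hsf2bp and 168 in Brca2. In Spata22 the match thus spanned the start site. TGACGTCA occurred in Brca2 alone, its first base 20 bases before the start site, and in 1.79% of all windows. The NRF1-type site occurred at 2 places in Spata22 and at 1 place in Hsf2bp, and in 6.23% of all windows. CCAAT was in the Psmc3ip and Spata22 windows and in 37.4% of all windows, and TAACNG was in the Psmc3ip and Rad51ap2 windows and in 23.3% of all windows. CNCCTCAG (a STRA8-type site) and CACGTG (an E-box) were in none of the 7 windows and in 7.94% and 7.15% of all windows. The Dmc1 and Mnd1 windows held none of the 7 elements. The 7 windows held 12 to 26 CpG dinucleotides, against a median of 7 over all windows (quartiles 3 and 20). A match is a match of letters and was not tested as a binding site. In mm10 Dmc1 spans chr15:79561497-79605159, Brca2 chr5:150522297-150570147, Hsf2bp chr17:31944769-32034895, Rad51ap2 chr12:11456023-11463153 and Psmc3ip chr11:101092141-101095435. Mnd1 spans chr3:84087933-84155798, Meiob chr17:24804301-24839788, Spata22 chr11:73326560-73346592 and Mcmdc2 chr1:9906157-9943606.

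The 9 genes did not share 1 time course. By the mean of the 2 samples Dmc1 and Brca2 stood highest at meiotic entry, Meiob, Spata22, Mnd1, Rad51ap2, Mcmdc2 and Hsf2bp in leptotene/zygotene cells, and Psmc3ip in late pachytene cells. In sample 1 alone Brca2 was highest in leptotene/zygotene and Hsf2bp in late pachytene cells. The meiotic entry class rests on the marker limits, since Leiden clusters did not recover it. At meiotic entry 4 of the 9 rose over spermatogonia and none fell (edgeR quasi-likelihood test, adjusted p under 0.05 over 18711 genes), where 2.97% of all genes rose and 2.85% fell. From meiotic entry to leptotene/zygotene 6 of 9 rose and none fell, against 8.08% and 5.87% of all genes. From there to early pachytene 5 of 9 fell and 1 rose, against 12.7% and 18.8% of all genes. From early to late pachytene 6 of 9 fell and 1 rose, against 22.6% and 28.5% of all genes. The median log2 fold change of the 9 genes over these 4 steps was 1.52, 1.71, -0.78 and -2.45, and that of all genes was -0.02, 0.12, 0.01 and 0.10.

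The split of calls over all genes depended on the scaling. TMM, which assumes that most genes do not change, moved the log2 changes by 0.14, 0.41 and 0.42 relative to library totals at the last 3 of these steps. With library totals in its place, 1032 genes were higher and 1318 lower in leptotene/zygotene over meiotic entry (1511 and 1098 with TMM), 2157 and 4030 in early pachytene over leptotene/zygotene (3515 and 2373) and 3599 and 6056 in late over early pachytene (5325 and 4235). DESeq2 called 682 higher and 350 lower at meiotic entry over spermatogonia (555 and 534 with edgeR), 1001 and 1263 at the next step, and 7017 and 4329 in round spermatids over late pachytene (6369 and 6411). With library totals the 9 genes gave 6 and 0, then 1 and 6, then 0 and 7 calls higher and lower at the last 3 steps, so Dmc1, Meiob, Mnd1, Brca2 and Rad51ap2 fell at early pachytene, and Psmc3ip rose there, under either scaling.

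**Figure D1:**
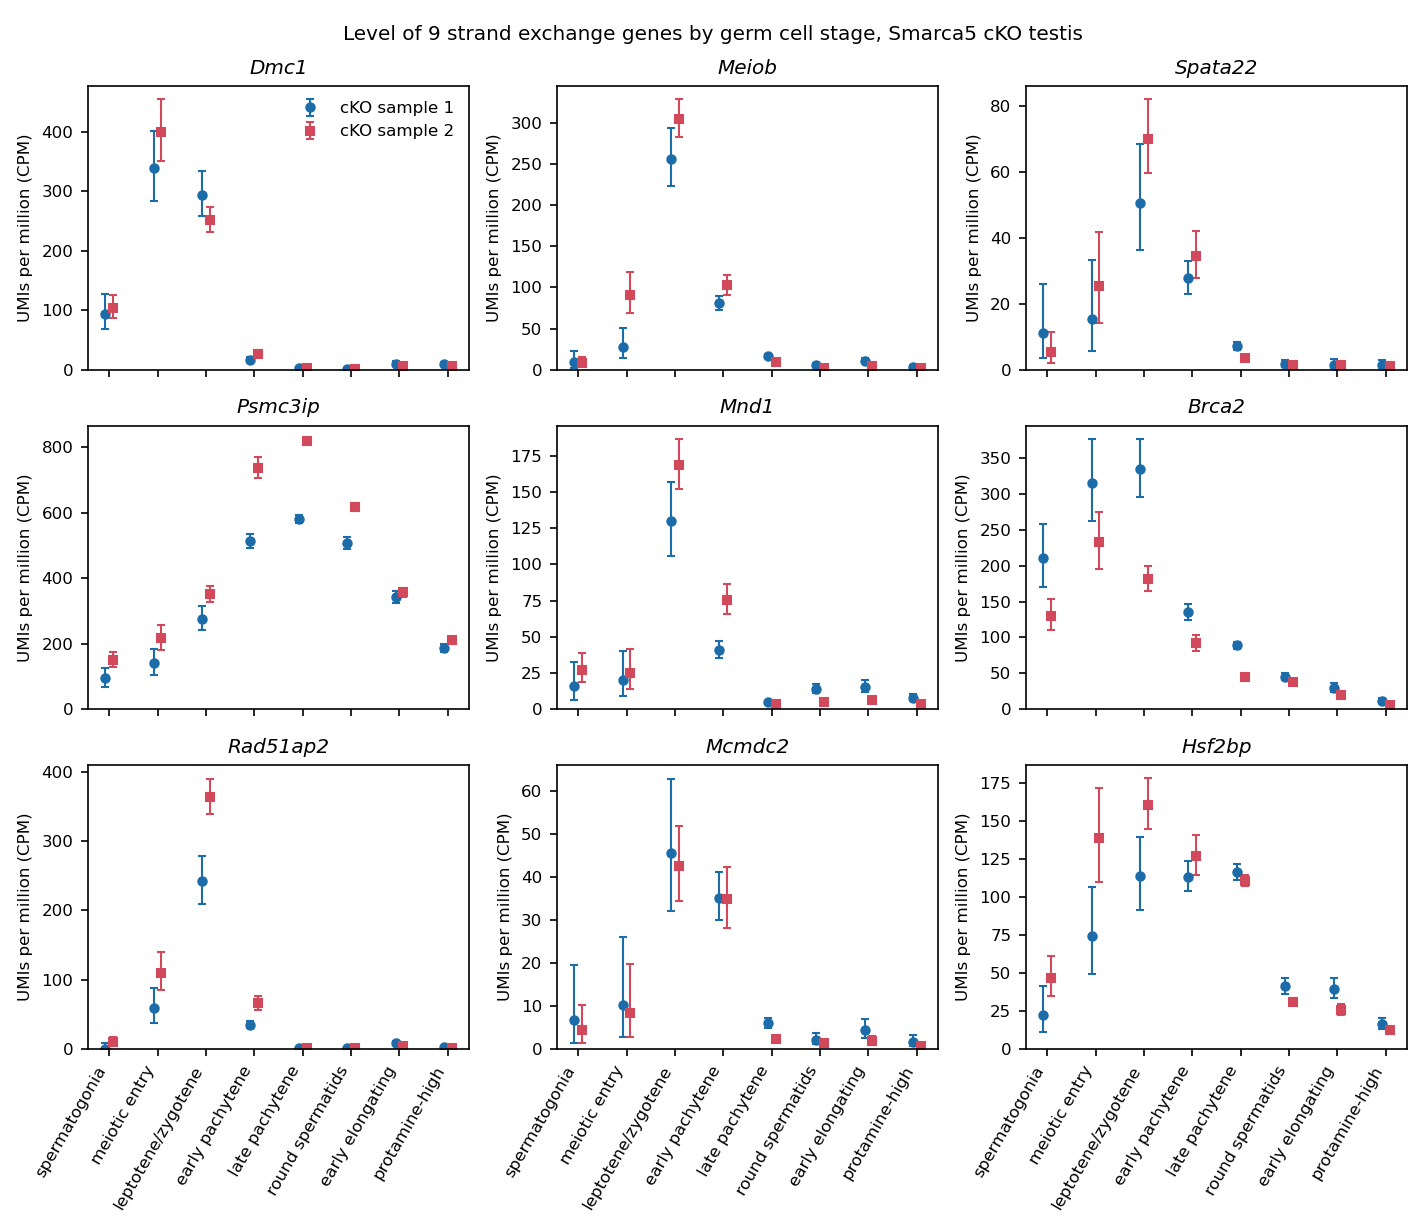
Level of each of the 9 genes (vertical axis, CPM) by germ cell stage (horizontal axis) in the 2 cKO samples. Points are the summed cells of 1 sample, and bars are exact Poisson 95% intervals, which cover counting error only. Psmc3ip stays above 500 CPM in both samples from early pachytene to round spermatids, while Dmc1 is below 30 CPM from early pachytene on.

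In cells classed as spermatogonia Dmc1 stood at 94.1 and 104 CPM in samples 1 and 2. These cells also carried the leptotene/zygotene markers at 20.2 and 20.8 UMIs per 10000, close to Sertoli cells (15.3 to 23.6) and below meiotic entry (60.6 and 68.5), and the part of RNA of other cells in the Dmc1 value was not tested. It stood at 339 and 399.8 CPM at meiotic entry, a rise of 1.89 on the log2 scale (SE 0.25, edgeR adjusted p = 1.7e-06). In leptotene/zygotene cells it stood at 294 and 252 CPM, below both meiotic entry values, but the change of -0.29 (SE 0.22) did not pass the test (adjusted p = 0.44). In early pachytene cells it stood at 16.4 and 26.3 CPM, and it fell by 3.34 on the log2 scale (SE 0.25, adjusted p = 8.4e-15). In late pachytene cells 2.32 and 1.94 CPM were left, a further change of -2.85 (SE 0.28, adjusted p = 5.7e-12). The samples of neighbouring stages did not overlap over these steps. A Dmc1 UMI was seen in 50.9% and 53.1% of meiotic entry cells and in 39.6% and 38.7% of leptotene/zygotene cells, and after thinning each cell to 1000 UMIs in 32.2% and 31.4% and in 27.3% and 23.6%. In Leydig cells, which do not enter meiosis, 2.12% and 2.48% of cells had a Dmc1 UMI, at medians of 2443 and 4008 UMIs per cell against 1886 and 1883.5 at meiotic entry.

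Round spermatids held Dmc1 at 1.48 and 1.47 CPM and early elongating spermatids at 9.97 and 6.26 CPM, and the increase of 2.41 (SE 0.35) passed the test (edgeR adjusted p = 1.7e-07). In barcodes of sample 1 with 10 to 100 UMIs, which hold free RNA rather than cells, Dmc1 stood at 9.28 CPM. In the same sample this was near the 9.97 CPM of early elongating spermatids and above the 1.48 CPM of round spermatids. Free RNA was not read in sample 2, and the part of free RNA in the early elongating values was not tested. Meiob and Rad51ap2 also passed the test at this step, with adjusted p = 0.026 and 0.00055. Meiob went from 4.04 ± 2.21 CPM (SD, n = 2) to 10.5 and 4.76 CPM and Rad51ap2 from 1.81 and 1.68 CPM to 7.81 and 4.13 CPM, against 26.9 and 10.2 CPM in the free RNA of sample 1. With cells grouped by Leiden clusters in place of marker limits, the change of Meiob was -0.22 and that of Rad51ap2 was -0.05. In all, 3 of 9 genes rose and 2 fell at this step, against 20.9% and 16.8% of all genes.

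Brca2, the recombinase loader, stood at 211 and 131 CPM in spermatogonia, 316 and 233 CPM at meiotic entry, and 335 and 182 CPM in leptotene/zygotene cells. The leptotene/zygotene range overlapped those of both other stages, and neither step passed the test (adjusted p = 0.053 and 1.0). In early pachytene cells Brca2 stood at 135 and 91.6 CPM, and it fell by 0.78 on the log2 scale (SE 0.21, adjusted p = 0.0029). Late pachytene cells held 89.0 and 44.7 CPM, a change of -0.38 that did not pass (adjusted p = 0.11). Sample 1 was above sample 2 for Brca2 in every one of the 8 stages. Brca2 also fell at each of the 3 later steps, with changes of -0.51, -0.75 and -0.89 (edgeR adjusted p = 0.024, 0.0053 and 0.0041), to 11.8 and 6.29 CPM in protamine-high spermatids. The free RNA of sample 1 held Brca2 at 64.0 CPM, above all spermatid values. At the last step Brca2 and Rad51ap2 were the 2 genes of 9 that fell and none rose, against 12% and 16.1% of all genes. There TMM moved the log2 changes by 0.61, and with library totals 6 of the 9 fell, as did 6506 of all genes with 1137 higher (2245 and 3008 with TMM).

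Hsf2bp, whose product binds BRCA2, stood at 22.4 and 46.8 CPM in spermatogonia and at 73.9 and 138 CPM at meiotic entry, a rise of 1.52 (SE 0.33, adjusted p = 0.0019). Through prophase it stood at 114 and 161 CPM in leptotene/zygotene, 113 and 127 CPM in early pachytene and 116 and 110 CPM in late pachytene cells. The ranges of these stages overlapped, and none of the 3 steps passed the test (adjusted p = 0.23, 0.65 and 0.18). In round spermatids 41.2 and 31.1 CPM were found, and Hsf2bp fell by 1.59 (SE 0.23, adjusted p = 2.5e-08), to below the 66.8 CPM in the free RNA of sample 1. At that step 5 of the 9 genes fell and 1 rose, against 34.3% and 34% of all genes. Among UMIs of the pair, Brca2 took 90.4% and 73.6% in spermatogonia, 74.7% and 53.1% in leptotene/zygotene and 43.4% and 28.8% in late pachytene cells. The share was lower in sample 2 at each of these stages.

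Rad51ap2 and Meiob passed the test at each of the 4 steps from spermatogonia to late pachytene. In spermatogonia Rad51ap2 had 0 UMIs in sample 1, which allows up to 6.72 CPM, and 9.71 CPM in sample 2. At meiotic entry it stood at 58.6 and 110 CPM, a rise of 3.70 (SE 0.49, adjusted p = 1.8e-06, a fitted value that depends on the prior count in sample 1). In leptotene/zygotene cells it reached 242 and 364 CPM, a rise of 1.98 (SE 0.30, adjusted p = 3e-06). It stood at 34.6 and 65.7 CPM in early pachytene cells and at 1.73 and 1.29 CPM in late pachytene cells, with changes of -2.27 (SE 0.26, adjusted p = 1.1e-09) and -4.59 (SE 0.32, adjusted p = 1.3e-16). A Rad51ap2 UMI was seen in 33.6% and 49.8% of leptotene/zygotene cells (median depth 1637 and 1850 UMIs) and in 0.303% and 0.939% of the deeper Leydig cells. Sample 2 was above sample 1 at each stage up to early pachytene.

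The partners Psmc3ip and Mnd1 moved apart. Psmc3ip, encoding HOP2, stood at 94.1 and 149 CPM in spermatogonia, 140 and 218 CPM at meiotic entry and 277 and 352 CPM in leptotene/zygotene cells. The last of these steps was a rise of 0.98 (SE 0.21, adjusted p = 0.00055). Early pachytene cells held 512 and 736 CPM, a rise of 1.35 (SE 0.18, adjusted p = 6.4e-08), and late pachytene cells 580.1 and 818 CPM. The late step of 0.61 (SE 0.18) passed the test (adjusted p = 0.0032), but with library totals in place of TMM scaling it was 0.17 (adjusted p = 0.46), and the ranges of both stages overlapped. Round spermatids held 506 and 616 CPM, and protamine-high spermatids 186 and 211 CPM. A Psmc3ip UMI was seen in 91.2% and 97.1% of late pachytene cells (median depth 7903.5 and 11566 UMIs) and in 10.5% and 13.1% of Leydig cells. The free RNA of sample 1 held Psmc3ip at 439 CPM.

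Mnd1 stood at 15.7 and 27.4 CPM in spermatogonia and 20.4 and 25.3 CPM at meiotic entry. In leptotene/zygotene cells it reached 130 and 169 CPM, a rise of 2.86 (SE 0.41, adjusted p = 1.7e-06). It fell to 41.0 and 75.6 CPM in early pachytene cells, a change of -1.03 (SE 0.29, adjusted p = 0.0037), and to 4.64 and 3.50 CPM in late pachytene cells, a change of -3.40 (SE 0.31, adjusted p = 7.3e-13). Round spermatids held 14.0 and 5.00 CPM, and the rise of 1.14 passed the test (adjusted p = 0.0016). The free RNA of sample 1 held Mnd1 at 7.42 CPM. Of the UMIs of the pair, Mnd1 took 31.9% in sample 1 (exact 95% interval 26.9 to 37.3%, counting error only) and 32.4% in sample 2 (29.7 to 35.2%) in leptotene/zygotene cells. In early pachytene cells its share was 7.41% and 9.32%, and in late pachytene cells 0.794% and 0.426%. UMIs of 3′ tags are not scaled to transcript length, so the share compares stages and does not give the ratio of the proteins.

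**Figure D2:**
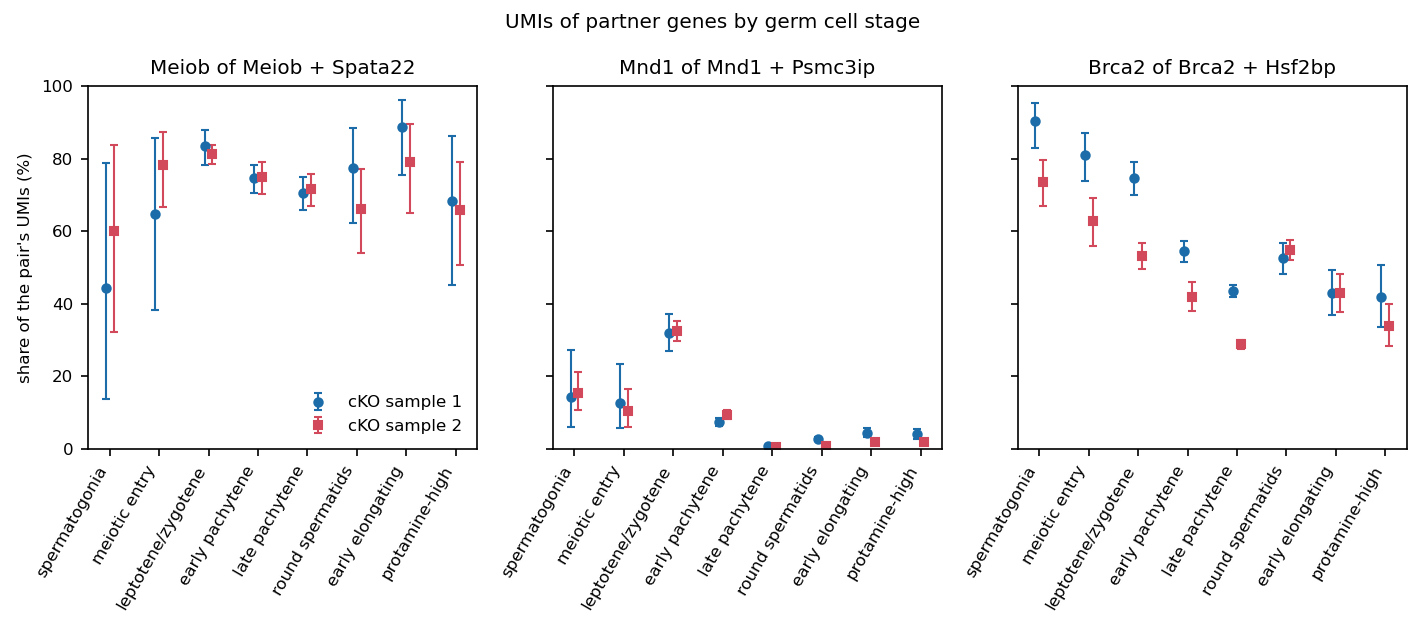
Share of a pair's UMIs that belongs to its first gene (vertical axis, percent) by germ cell stage (horizontal axis) in the 2 cKO samples, for 3 pairs whose products bind each other. Bars are exact 95% binomial intervals for counting error only. The Mnd1 share is near 32% in leptotene/zygotene cells of both samples and below 1% in late pachytene cells.

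Meiob and Spata22, whose products form a complex, followed a like course. Meiob stood at 8.96 and 7.95 CPM in spermatogonia and at 28.0 and 91.1 CPM at meiotic entry, a rise of 2.93 (SE 0.52, adjusted p = 0.00018). It reached 257 and 305 CPM in leptotene/zygotene cells, a rise of 2.29 (SE 0.32, adjusted p = 9.3e-07). The values of 81.1 and 103 CPM in early pachytene and 16.9 and 8.80 CPM in late pachytene cells were changes of -1.27 (SE 0.26, adjusted p = 0.00013) and -2.45 (SE 0.27, adjusted p = 1.5e-10). The early pachytene range overlapped that of meiotic entry.

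Spata22 stood at 15.3 and 25.3 CPM at meiotic entry and at 50.6 and 70.2 CPM in leptotene/zygotene cells, a rise of 1.71 (SE 0.39, adjusted p = 0.0012). Early pachytene cells held 27.7 and 34.4 CPM, both below the leptotene/zygotene values, and the change of -0.65 (SE 0.27) did not pass the test (adjusted p = 0.060). With library totals in place of TMM it was -1.03 and passed (adjusted p = 0.0063). Late pachytene cells held 7.08 and 3.50 CPM, a change of -2.17 (SE 0.27, adjusted p = 2.2e-09). Of the UMIs of the pair, Meiob took 83.5% and 81.3% in leptotene/zygotene, 74.5% and 74.9% in early pachytene and 70.5% and 71.5% in late pachytene cells. These shares moved by less than that of Mnd1 in its pair. Both Meiob and Spata22 fell again from late pachytene to round spermatids, by 1.70 and 1.75 on the log2 scale (edgeR adjusted p = 5.9e-06 and 1.4e-05). The free RNA of sample 1 held Meiob at 26.9 and Spata22 at 10.2 CPM, above the late pachytene and round spermatid values of both genes. The part of free RNA in these values was not tested.

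Mcmdc2, the MCM relative, stood at 6.72 and 4.41 CPM in spermatogonia and 10.2 and 8.43 CPM at meiotic entry. In leptotene/zygotene cells it reached 45.7 and 42.5 CPM, a rise of 2.44 (SE 0.47, adjusted p = 0.00021). Early pachytene cells held 35.2 and 34.8 CPM, a fitted change of -0.02 (SE 0.27) that did not pass the test (adjusted p = 0.99) and whose sign turned under 5 other settings and without either sample. Late pachytene cells held 5.95 and 2.35 CPM, and Mcmdc2 fell by 2.76 (SE 0.27, adjusted p = 3.9e-12), to below the 12.1 CPM in the free RNA of sample 1. The gene overlaps Snhg6, as Meiob overlaps Hagh, Spata22 overlaps Aspa and Psmc3ip overlaps Mlx. Whether the counting used the strand is not given in the sources used here, so reads of the overlapping parts cannot be told apart.

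Levels within prophase were also read in finer bins of the leptotene/zygotene marker share. Each leptotene/zygotene, early pachytene or late pachytene cell was placed by its leptotene/zygotene share of leptotene/zygotene and pachytene marker UMIs, from 100% down. Meiotic entry cells, the stage where Dmc1 was highest, were not binned. In the bin of 95 to 100% Dmc1 stood at 455 and 407 CPM, and in the next bins at 364 and 297 CPM, 188 and 159 CPM, 43.6 and 59.2 CPM at 70 to 80%, and 9.57 and 12.7 CPM at 60 to 70%. Brca2 and Meiob also had their highest bin at 95 to 100% in both samples, with 442 and 297 CPM for Brca2 and 278 and 332 CPM for Meiob. Meiob was still at 165 and 199 CPM at 70 to 80%, where Dmc1 was below 60 CPM in both samples. Rad51ap2 was highest at 90 to 95% (335 and 438 CPM) and Mnd1 at 80 to 90% (173 and 208 CPM). Mnd1 stood at 37.9 and 98.9 CPM in the bin where Dmc1 was highest. Psmc3ip stood at 126 and 231 CPM in the bin of 95 to 100% and was highest with 605 CPM at 30 to 40% in sample 1 and with 957 CPM at 40 to 50% in sample 2. Hsf2bp stayed between 106 and 133 CPM in sample 1 and between 106 and 175 CPM in sample 2. For Spata22, Mcmdc2 and Hsf2bp the highest bin differed between the samples. These bins carry no test, and the counting intervals of the highest bin and other bins overlapped for some genes. In sample 1 Meiob stood at 278 CPM (95% interval 202 to 373) at 95 to 100% and at 270 CPM (222 to 325) at 80 to 90%. Brca2 in sample 1 stood at 442 CPM at 95 to 100% and at 432 CPM at 90 to 95%.

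**Figure D3:**
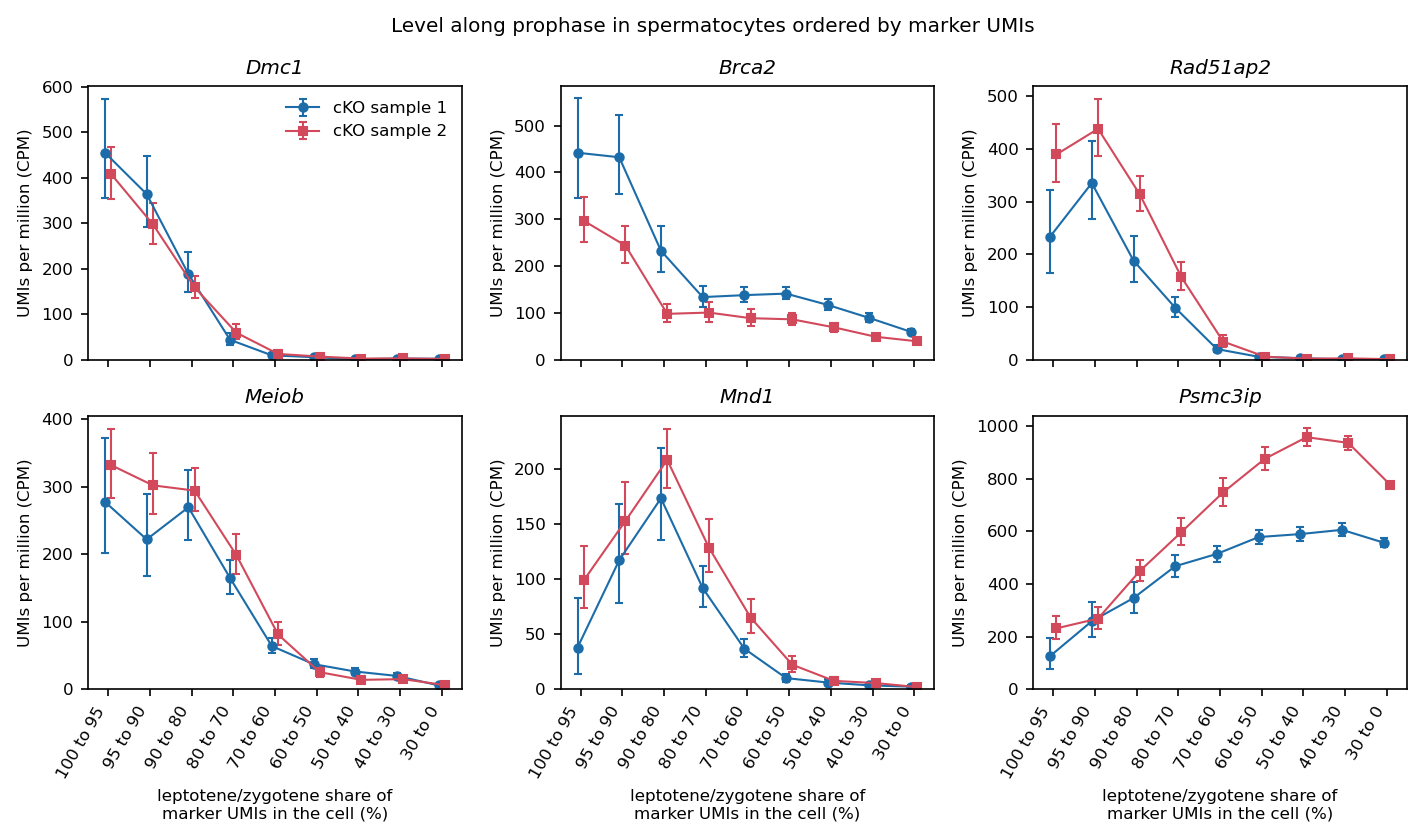
Level of the genes (vertical axis, CPM) in spermatocytes binned by their leptotene/zygotene share of marker UMIs (horizontal axis, percent, from early on the left to late on the right) in the 2 cKO samples. Bars are exact Poisson 95% intervals for counting error only. Dmc1 is highest in the leftmost bin, Rad51ap2 and Mnd1 in the next bins, and Psmc3ip is lowest in the leftmost bin in both samples.

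The mean of leptotene/zygotene and early pachytene cells was set against the mean of Sertoli, Leydig and macrophage cells of the same samples. All 9 genes were higher in this comparison of means (edgeR adjusted p of 1.9e-09 or lower for each). Of all genes, 25.7% were higher and 23.1% lower. The log2 differences ranged from 1.63 for Dmc1 (SE 0.22) to 3.69 for Mcmdc2 (SE 0.36), with a median of 3.00 against 0.08 over all genes. DESeq2 gave the same 9 calls, with 3399 genes higher and 6515 lower in all (4767 and 4282 with edgeR), and TMM moved these changes by -0.15 relative to library totals. In Leydig cells Dmc1 stood at 8.03 and 5.63 CPM, Rad51ap2 at 1.07 and 2.37 CPM and Mcmdc2 at 0 and 0.741 CPM. Psmc3ip was found at 43.9 and 44.9 CPM in Leydig cells and at 307 and 199.9 CPM in Sertoli cells. Its leptotene/zygotene values were 277 and 352 CPM, so in sample 1 the Sertoli value was the higher. Dmc1 stood at 48.1 and 39.3 CPM in Sertoli cells, above its 16.4 and 26.3 CPM in early pachytene cells. Sertoli cells also carried the leptotene/zygotene markers at 15.3 to 23.6 UMIs per 10000, far above the 2.36 to 2.85 of Leydig cells. The part of germ cell RNA in the Sertoli values was not tested.

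A class of spermatocytes with fewer than 3% of UMIs from ribosomal protein genes was kept apart, by a limit set after the data were seen. It held 227 of 3608 spermatocytes (6.29%) in sample 1 and 1633 of 6119 (26.7%) in sample 2. In these cells Psmc3ip stood at 77.3 and 85.5 CPM, below every germ stage of either sample from spermatogonia to protamine-high spermatids. Mnd1 stood at 6.45 and 7.65 CPM and Rad51ap2 at 8.06 and 15.5 CPM. Meiob stood at 82.2 and 86.8 CPM and Brca2 at 99.9 and 109 CPM, both between their early pachytene values. Mcmdc2 stood at 46.7 and 66.9 CPM, above both early pachytene values, and Hsf2bp at 116 and 142 CPM. By their markers 92 and 751 of these cells would have been early pachytene and 91 and 622 late pachytene cells. A further 43 and 239 would have been leptotene/zygotene, 0 and 18 meiotic entry cells and 1 and 3 spermatogonia. The class thus mixes stages, and its values are not those of pachytene cells alone. The values are given with no test, and what sets this class apart was not tested.

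**Figure D4:**
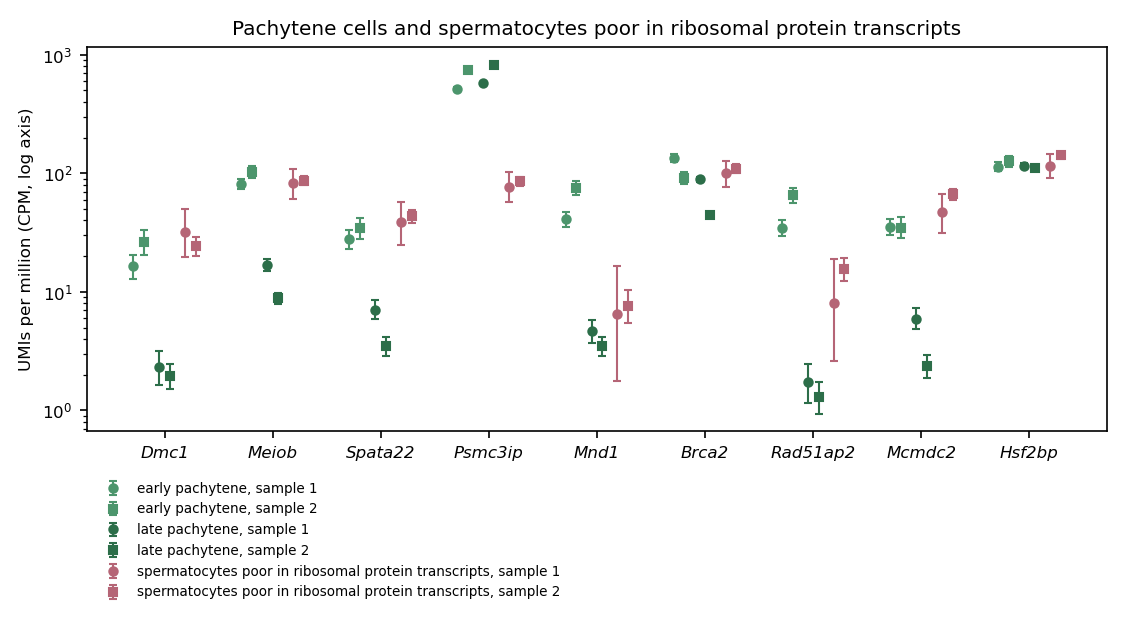
Level of the 9 genes (vertical axis, CPM, log axis) in spermatocytes with under 3% ribosomal protein UMIs and in early and late pachytene cells, in the 2 cKO samples. Other stages from which some of these spermatocytes were taken are not shown. Bars are exact Poisson 95% intervals for counting error only. Psmc3ip lies below the other classes in both samples, while Hsf2bp lies beside them.

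The course of Dmc1 was compared with those of 11032 genes over the 8 stages. By the lower of the Pearson correlations of the 2 samples, the most alike were Cyld (0.991), a deubiquitinase, Kdm6a (0.988), a histone H3 lysine 27 demethylase, Pak1 (0.984), a kinase, Usp3 (0.984), a histone deubiquitinase, and Slc25a42 (0.982), a mitochondrial carrier. All of the other 8 genes described here were less alike, from 0.744 for Brca2 and 0.702 for Spata22 to 0.158 for Hsf2bp and -0.687 for Psmc3ip. These values rest on 8 points per sample that share their cells and depth, and they are a description.

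Another 25 genes of recombinase loading and single-strand protection were followed beside the 9. From meiotic entry to leptotene/zygotene 1 of 25 rose and 3 fell, against 8.08% and 5.87% of all genes. The median was -0.31, and 0.12 over all genes. Swi5, the partner of Sfr1, stood at 454 and 747 CPM at meiotic entry and 958 and 1451 CPM in leptotene/zygotene cells, a rise of 1.16 (edgeR adjusted p = 4.1e-05). Rpa3, the small subunit of RPA, changed by -1.08 (adjusted p = 0.031) and Brca1 by -0.98 (adjusted p = 0.014).

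From leptotene/zygotene to early pachytene 4 of the 25 rose and 4 fell, close to the 18.8% and 12.7% of all genes. The median was 0.03, and 0.01 over all genes. Rad51b stood at 238 and 156 CPM and then at 15.1 and 13.1 CPM, a change of -3.41 (edgeR adjusted p = 1.8e-13), beside the -3.34 of Dmc1. BC055324, which encodes the FIGNL1 partner FIRRM, changed by -1.52 (adjusted p = 2.8e-05) and Spidr, a scaffold protein of recombination repair, by -1.31 (adjusted p = 7.7e-05). Zswim7 rose by 1.09 (adjusted p = 2.7e-05), the RPA subunit Rpa1 by 1.06 (adjusted p = 0.00073) and Xrcc2 by 0.87 (adjusted p = 0.016). Over somatic cells 19 of the 25 were higher and none was lower, against 25.7% and 23.1% of all genes.

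Open chromatin near the 9 genes was read from the authors' peak lists (MACS2 broad peaks, mm10). A region is a set of overlapping peaks of any of the 8 libraries, and 47 regions lay within 5 kb of the 9 genes. The fold enrichment of a peak is the authors' value and is used within its own library. These are sorted bulk cells, so fewer open cells and less signal per cell cannot be told apart. Each of the 9 genes had a peak within 5 kb in each of the 8 libraries, as did 75.1% to 84.0% of 21883 protein-coding genes. Of the 7 start sites with a RefSeq window, 6 lay under a peak in all 8 libraries, as did 34.3% of all windows, and Hsf2bp lay under one in 7.

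The Dmc1 start site lay in a region of chr15:79604537-79605599, with fold enrichments of 5.5 and 6.6 in cKIT+ cells of wild type and 8.0 and 10.9 in those of cKO testis. In 4C cells they were 7.2 and 8.5 for wild type and 6.8 and 7.1 for cKO. It is the region of the Dmc1 promoter printed above, at the 5′ end of the gene. Brca2 (chr5:150522204-150523067), Rad51ap2 (chr12:11455663-11456470) and Mnd1 (chr3:84154752-84156018) had peaks over their starts in all 8 libraries. The lowest rank of these 3 regions was the 83.5th percentile of a library's peaks, for Brca2 in wild-type cKIT+ library 1. Psmc3ip had its start region at chr11:101094850-101096076 and Spata22 at chr11:73329073-73330421, both in all 8 libraries. The Spata22 window lies inside the span given for the gene. The lower end of that span lay under another region, chr11:73326497-73326881, with peaks in 3 libraries. Meiob had an 8-library region over the lower end of the gene, at chr17:24803948-24804904, and Mcmdc2 had one inside the gene at chr1:9908271-9909276. The start of Dmc1 thus lay under a peak in both sorts. No RNA was measured in the sorted cells and the stages of the 4C cells could not be checked. These peaks are therefore not set against the RNA of a stage.

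The Hsf2bp start region (chr17:32034127-32034638) had the lowest fold enrichment of the 7 start regions in each library that had it. Its fold enrichment was 3.2 in wild-type cKIT+ library 1, with no peak in library 2, 3.6 and 3.6 in cKO cKIT+ cells, 5.2 and 4.5 in wild-type 4C cells and 4.1 and 4.4 in cKO 4C cells. Hsf2bp, at 90127 bases the longest of the 9 genes, had 15 regions in all. Of these, 6 had a peak in wild-type cKIT+ library 2 and both cKO cKIT+ libraries and in no 4C library. They include chr17:31979958-31980324, with fold enrichments of 8.9, 8.2 and 11.7, and chr17:31962283-31963291, with 7.3, 8.7 and 11.5, both inside the gene. Wild-type cKIT+ library 1, where they are missing, has 44697 peaks, and library 2 has 112518. The cKO cKIT+ libraries have 127222 and 121802 peaks, so the cKIT+ comparison is unequal in what was called. In cKO cells 38.1% of regions near all genes were in both cKIT+ libraries and in no 4C library.

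Between genotypes, a region was counted where both libraries of one genotype had a peak and neither of the other did. In cKIT+ cells 3 of 38 regions near the 9 genes were cKO only and none was wild type only, against 8.46% and 0.732% of regions near all genes. The 3 were chr11:73345820-73345977 at Spata22 (fold enrichments 4.1 and 3.7), and chr1:9907063-9907342 (4.1 and 3.1) and chr1:9929529-9929682 (3.2 and 3.9) at Mcmdc2. All 3 lay inside the genes. The Spata22 region did not cover the promoter window of that gene. Mcmdc2 had no promoter window, so the place of its start was not known here. Its region chr1:9907063-9907342 lay between the lower end of the gene (chr1:9906157) and its 8-library region at chr1:9908271-9909276. With lists shortened to equal length none of the 3 was counted (0 of 25 regions, against 2.85% near all genes). Without wild-type cKIT+ library 2 there were 16 of 38 (42.1%), against 46.8% near all genes. When peaks had to hold each other's midpoint there were 10 of 50 (20%), at Spata22, Mcmdc2 and Hsf2bp, against 8.86% near all genes. In 4C cells 0 of 24 regions were cKO only and 0 wild type only, against 4.26% and 3.31% near all genes. With 2 libraries against 2 there is no test of a single region.

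Between sorts, 3 of 34 wild-type regions were found in cKIT+ cells only and none in 4C cells only, against 5.55% and 6.29% near all genes. These were chr3:84135461-84136311 inside Mnd1, chr12:11453808-11454043 before Rad51ap2 and chr17:31943920-31944558 beyond the 3′ end of Hsf2bp. In cKO cells 17 of 42 regions were in cKIT+ cells only and none in 4C cells only, against 38.1% and 4.95% near all genes, so the share near the 9 genes was close to that of all regions. No region over a promoter window was among the 17. They included chr11:73326497-73326881, which covers the lower end of the span given for Spata22, a plus-strand gene. Without wild-type cKIT+ library 1 the wild-type count was 14 of 33 regions (42.4%), against 51.8% near all genes.

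**Figure D5:**
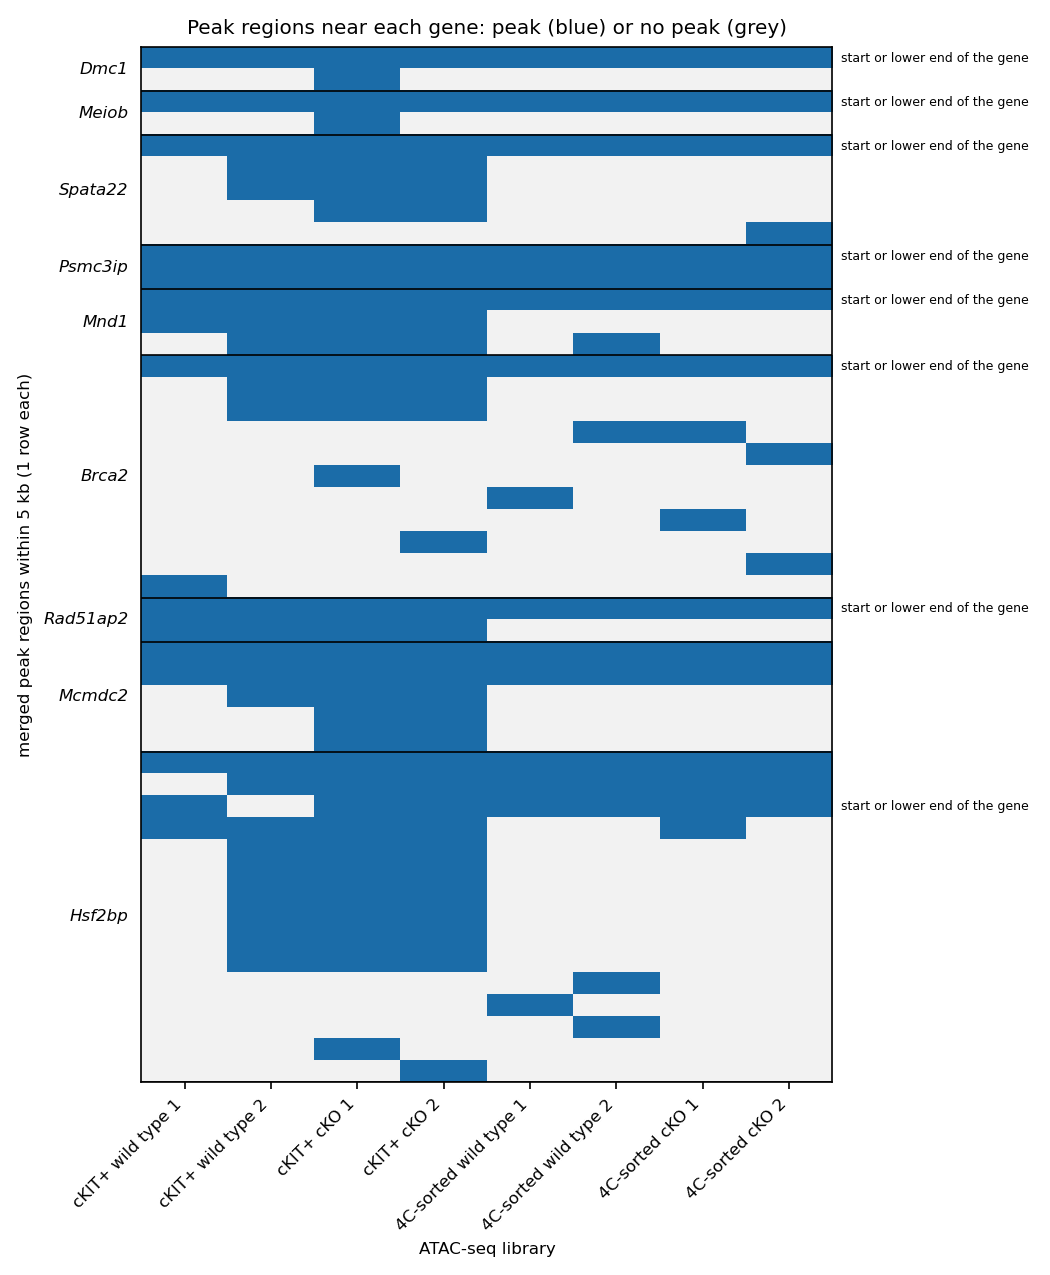
Peaks in the 8 ATAC-seq libraries (horizontal axis) for each of the 47 regions within 5 kb of the 9 genes (1 row each, grouped by gene). Blue marks a peak and grey no peak. Rows filled across all 8 libraries include the start regions of Dmc1, Brca2, Rad51ap2, Mnd1, Psmc3ip and Spata22. Rows with a peak only in wild-type cKIT+ library 2 and both cKO cKIT+ libraries are most frequent at Hsf2bp. Hsf2bp is the longest of the 9 genes and has 15 of the 47 regions.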

How the data were processed

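The authors deposited UMI counts per gene and cell for 2 single-cell samples (10x Genomics 3′ v3.1; Cell Ranger 7.1.0 and 9.0.1 per the file headers, with Seurat 4.1.0 named in the submitters' processing notes). They also deposited 8 broad peak lists from MACS2 on mm10 after cutadapt and Bowtie2, per the submitters' processing notes (versions not given in the sources used here). A peak comes with the authors' score, fold enrichment (a ratio) and −log10 p and q values. Whether replicates were pooled for peak calling is not stated; each list belongs to 1 library.

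Sample 1 was deposited unfiltered (987771 barcodes, 63605819 UMIs) and sample 2 as 17744 barcodes of at least 500 UMIs (115830234 UMIs). Cells were kept from 1000 UMIs and 500 genes upward, if mitochondrial UMIs made up no more than 10% (8098 and 14262), and Scrublet (scanpy 1.11.5) removed 685 and 1329 doublets. Stages were set per cell from marker UMIs. Spermatocytes with under 3% ribosomal protein UMIs formed a class of their own. UMIs were summed per stage and sample and tested with edgeR 4.0.16 (quasi-likelihood test, TMM, low-count filter, sample as a block, Benjamini-Hochberg over all genes). DESeq2 1.42.0 was an alternative. Because all stages come from the same 2 samples, the sample number pairs them.

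In simulated counts for early pachytene over leptotene/zygotene (16137 genes), 24% of 100 genes changed 2-fold and 95% of 100 changed 4-fold were recovered, with 11 false calls. CPM intervals are exact Poisson and share intervals exact Clopper-Pearson, at 95%, and cover counting error only; a count of 0 allows 3 counts. Peaks sharing at least 1 base were merged. All 9 genes are named, and of the 25 pathway genes the 3 with the largest change past the threshold in each direction at the steps into and out of leptotene/zygotene. The genes, lists and tests were chosen with earlier results of these data known. Among the pathway genes, 1 that the rule names is not reported here.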

Additional observations from a re-analysis of the deposited data

How the results depend on the processing

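The 36 calls on single genes of the 9 kept their direction and passed the test in 250 of 278 tested alternatives, lost the test in 25 and turned in 3. Without the sample block, 3 of the 9 genes fell in early pachytene (5 with it), none rose in late pachytene (1), and none fell in early elongating (2) or protamine-high spermatids (2). No pathway gene was then called from meiotic entry to leptotene/zygotene (1 higher and 3 lower with the block), and 2 rose in early pachytene (4). Over all genes, calls at meiotic entry went from 555 and 534 to 153 and 121. No paired analysis was possible because peak lists give presence and not a test, so pairing was not applied to them.

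Late pachytene higher calls were 0 with Leiden clusters and with library totals (1). Round spermatid lower calls were 3 with DESeq2 (5). Early elongating calls were 1 higher with Leiden clusters (3) and 1 lower with low-ribosomal cells kept (2). Protamine-high calls were 1 higher with at least 2000 UMIs per cell or Leiden clusters (0), and 1 lower with DESeq2, at least 2000 UMIs or Leiden clusters and 6 lower with library totals (2). Pathway calls from meiotic entry to leptotene/zygotene were 2 higher with no filter, doublets kept or at least 2000 UMIs (1), and 1 lower with no filter, doublets kept or low-ribosomal cells kept (3). In early pachytene they were 2 higher with DESeq2, doublets kept, at least 2000 UMIs or library totals (4), and over somatic cells 2 lower with at least 2000 UMIs (0).

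Signs turned mostly for changes near 0. Brca2 from meiotic entry to leptotene/zygotene was -0.10 with DESeq2, -0.048 with at least 2000 UMIs, -0.14 with library totals and -0.19 to 0.28 leaving out a sample. Hsf2bp in early pachytene was -0.22 with library totals and -0.0015 to 0.44 leaving out a sample, and in late pachytene -0.082 with library totals. Mcmdc2 in early pachytene was 0.031 with no block, 0.027 with no filter, 0.0013 with at least 2000 UMIs, 0.35 with Leiden clusters, 0.21 with low-ribosomal cells kept and 0.051 to 0.072 leaving out a sample. Psmc3ip in round spermatids was 0.11 with DESeq2. With Leiden clusters Meiob was -0.22 and Rad51ap2 -0.048 in early elongating and Rad51ap2 0.75 in protamine-high spermatids. The causes were not tested. Scaling by library totals and keeping low-ribosomal cells were chosen after seeing the data.

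Region counts moved more. At −log10 q of at least 5, wild-type regions were 0 in cKIT+ only (3) and 2 in 4C only (0), and cKO regions 1 in 4C only (0). In lists of equal length, cKO-only cKIT+ regions were 0 (3), and cKO regions 10 of 30 in cKIT+ only (22% of all regions) and 1 in 4C only (15.8%). When peaks had to hold each other's midpoint, cKO-only cKIT+ regions were 10 of 50 (8.86% of all regions) and wild-type 4C-only regions 1 of 36 (5.39%). Leaving out a library gave 4 to 16 cKO-only and 0 to 1 wild-type-only regions in cKIT+ cells, 0 to 3 of each in 4C cells, 3 to 14 and 1 to 3 wild-type regions in cKIT+ only and 4C only, and 17 to 21 and 0 to 3 cKO regions. Counts of calls without 1 sample could not be made, since no residual degrees of freedom are left. Leiden clusters gave no meiotic entry class of at least 50 cells in both samples. Depth limits the low levels in spermatogonia: Meiob, Spata22 and Mcmdc2 rest there on 3 to 9 UMIs a sample.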
